A study of Mus musculus with 4 samples.

Results

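Kainate receptors and delta receptors are 2 families of ionotropic glutamate receptors, and their subunit genes were followed here in cultures of mouse prefrontal cortex (PFC) grown with or without FGF2. The genes were the 5 kainate subunits Grik1, Grik2, Grik3, Grik4 and Grik5 and the delta subunit Grid1, found in the count tables by Ensembl identifier, 6 of the 55421 genes listed. PFC tissue of wild-type C57BL/6 mice at postnatal day 0 was dissociated and kept in culture for 10 days in neurobasal medium with B27, and the FGF2 group also received 5 ng/mL of FGF2, whereas the no FGF2 group received none. Total RNA was sequenced in 4 libraries, 2 per group, which are named here by group and replicate as the titles number them. The methods of the study give technical replicates for every bulk sample outside a pair of human stages and do not mention the mouse cultures by name, so n counts libraries, and every p-value below covers the spread between libraries that may be of a single culture, not between cultures or animals.

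Each kainate receptor is a tetramer. GluK1, GluK2 and GluK3, encoded by Grik1 to Grik3, can form channels on their own, whereas GluK4 and GluK5, encoded by Grik4 and Grik5, bind glutamate with high affinity but need a partner of the first kind. In cortex they act on both sides of the synapse, where they modulate transmitter release and add slow currents, and Grik1 is known for its expression in inhibitory neurons (IN). The delta subunit GluD1, encoded by Grid1, is barely gated by glutamate and works mainly as a synaptic organizer that binds presynaptic neurexins through secreted cerebellins.

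The coding bases of the pore make the kinship of the 6 subunits visible and hold the codon that RNA editing can alter in Grik1 and Grik2, so they are shown here from the GENCODE M21 transcripts with the longest coding sequence. Each run has 114 bases and reads from a glutamine codon in the pore loop, in capitals, to the end of a motif in the third membrane segment that ionotropic glutamate receptors share.
Grik1: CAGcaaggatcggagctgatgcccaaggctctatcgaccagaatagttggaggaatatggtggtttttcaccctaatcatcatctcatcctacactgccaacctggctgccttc
Grik2: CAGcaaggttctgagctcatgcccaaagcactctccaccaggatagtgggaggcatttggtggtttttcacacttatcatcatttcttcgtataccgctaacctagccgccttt
Grik3: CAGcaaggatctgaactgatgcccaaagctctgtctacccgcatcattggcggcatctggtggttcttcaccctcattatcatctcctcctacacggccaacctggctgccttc
Grik4: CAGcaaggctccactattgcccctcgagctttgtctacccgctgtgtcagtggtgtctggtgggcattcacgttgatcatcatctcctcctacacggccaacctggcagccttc
Grik5: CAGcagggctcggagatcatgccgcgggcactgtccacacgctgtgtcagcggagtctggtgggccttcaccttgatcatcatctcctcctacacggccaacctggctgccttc
Grid1: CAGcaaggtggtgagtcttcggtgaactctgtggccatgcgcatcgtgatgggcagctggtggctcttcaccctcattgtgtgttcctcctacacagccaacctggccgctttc
The capitals mark the same codon, CAG, in 6 of 6 genes, and each run continues into the next exon. The codon lies in coding exon sequence at chr16:87940542-87940544 in Grik1 (exon 13 of 18, minus strand), chr10:49244329-49244331 in Grik2 (exon 13 of 17, minus strand) and chr4:125691207-125691209 in Grik3 (exon 12 of 16, plus strand) of mm10. In Grik4 it lies at chr9:42547623-42547625 (exon 16 of 21, minus strand), in Grik5 at chr7:25022497-25022499 (exon 15 of 20, minus strand) and in Grid1 at chr14:35450390-35450392 (exon 11 of 16, plus strand). Over this run Grik1 and Grik3 were 85.1% identical and Grik4 and Grik5 82.5%, whereas Grik2 and Grik4 were 62.3% identical and Grik4 and Grid1 58.8%. A BLAST search of the longest transcript of each gene met no match to another gene of 100 or more bases at 95% identity or above. Gene counts do not show whether a transcript was edited.

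The genes lie on different chromosomes of mm10. Grik1 spans chr16:87895900-88290265, Grik2 chr10:49094833-49788766 and Grik3 chr4:125490700-125714173, and Grik4 spans chr9:42518135-42944493, Grik5 chr7:25009849-25072346 and Grid1 chr14:34820108-35583379. Exons of other genes on the same strand covered 59 exonic bases of Grik4 and 91 of Grid1, and no exon of another gene on either strand overlapped those of Grik1, Grik2, Grik3 or Grik5. Counts on genes totalled 9166432 to 9907613 with FGF2 and 10460236 to 10799886 without, and 3 counts, the level that a count of 0 would allow, corresponded to 0.277 to 0.331 CPM (gene counts scaled to a common library size, with the TMM method of edgeR). This limit covers counting error only. The 6 genes had between 251 and 3260 counts per library, far above it.

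Of the 6 subunit genes 3, Grik1, Grik3 and Grik5, were lower with FGF2 in the test of edgeR across all genes. Grik1 fell to 0.65 of its level without FGF2, and Grik3 and Grik5, the most abundant of the subunits per length, fell to 0.83 and 0.82. Grik2, Grik4 and Grid1 missed the cutoff of 0.05 on the adjusted p-value. Of the 17144 genes in the test 40.5% passed in either direction and 19.9% were lower with FGF2, so 3 of 6 is a share to be read against a broad response. The median log2 fold change was -0.21 over the 6 genes and 0.00 over all tested genes. With edgeR 0 of the 6 genes were higher, 0 were higher and 4 lower at an unadjusted p-value below 0.05, and DESeq2 and limma-voom also found 0 higher and 3 lower. The libraries are of whole cultures, so fewer cells of a type and less RNA per cell cannot be told apart.

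**Figure D1:**
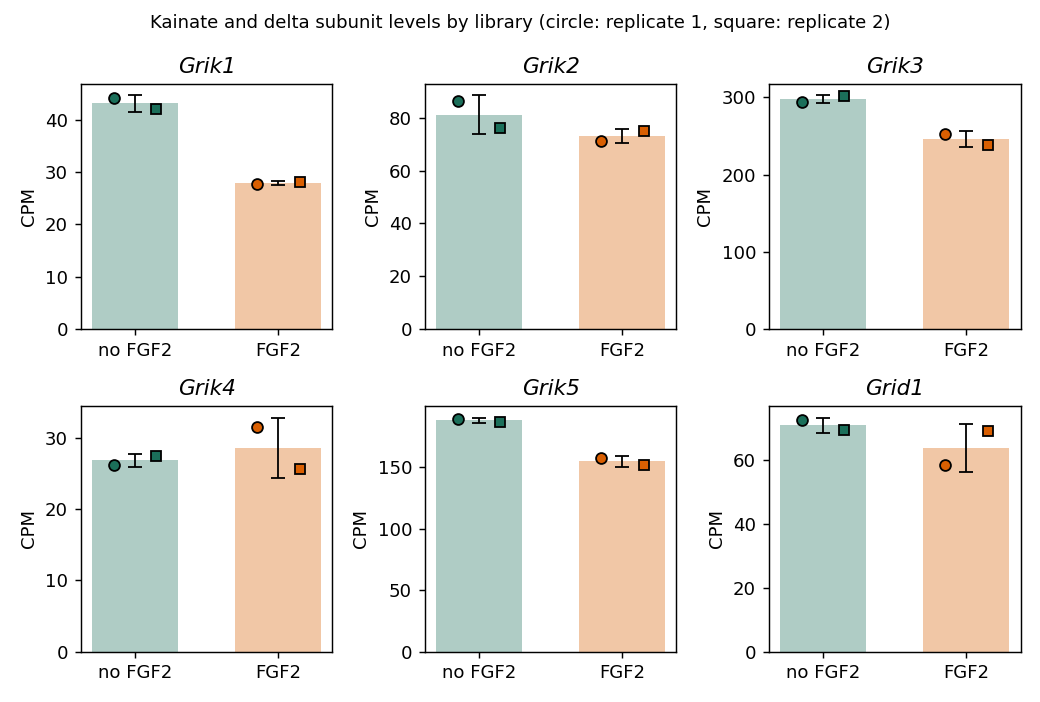
Level of each subunit gene in CPM (vertical axis, from 0) without and with FGF2. Points are single libraries, bars the mean of 2 and error bars the SD; the groups are well apart for Grik1, Grik3 and Grik5, close for Grik2 and Grid1, and overlapping for Grik4.

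Among the subunits that can form channels alone, Grik1 had 27.7 and 28.2 CPM in replicates 1 and 2 with FGF2, against 44.2 and 42 without. The replicates were close to each other and far from the other group. Its log2 fold change was -0.63 (standard error 0.11, 95% interval -0.83 to -0.42), with an adjusted p of 2.5e-08 by the quasi-likelihood method of edgeR. Grik3 had 253.0 and 238.8 CPM with FGF2 and 294.0 and 301.1 without, so both libraries with FGF2 were lower. The log2 change came to -0.28 (SE 0.04, edgeR adjusted p = 5.2e-09). Grik2, whose product is found in many kainate receptors of the forebrain, had 71.2 and 74.9 CPM with FGF2 and 86.3 and 76 without. The groups did not overlap, but the nearest libraries differed by little. The log2 fold change of Grik2 was -0.15 (standard error 0.07, 95% interval -0.30 to -0.01 before adjustment, edgeR adjusted p = 0.0934). Grik2 passed with upper quartile scaling (edgeR adjusted p = 0.0443) and once no FGF2 replicate 2 was dropped (-0.24, edgeR adjusted p = 0.0396), and its adjusted p was 0.388 with DESeq2.

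Of the high-affinity subunits Grik5 was lower and Grik4 did not pass. Grik5 had 157.6 and 151.6 CPM with FGF2 and 189.4 and 186.3 without, a clear separation with little spread in either group. The log2 change came to -0.28 (SE 0.05, edgeR adjusted p = 6.5e-07). Grik4 had 31.6 and 25.6 CPM with FGF2 and 26.2 and 27.5 without. The libraries with FGF2 lay on either side of those without. The log2 fold change of Grik4 was 0.09 (edgeR adjusted p = 0.591). Its 95% interval of -0.14 to 0.32 held both lower and higher values, so the direction was not settled. The log2 fold change turned to -0.07 without replicate 1 of the cultures with FGF2.

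Grid1 had 58.5 and 69.1 CPM with FGF2 and 72.7 and 69.4 without. Replicate 2 with FGF2 was almost level with replicate 2 without FGF2, and replicate 1 with FGF2 stood lower. The log2 fold change was -0.15 (standard error 0.08, 95% interval -0.31 to 0.00, edgeR adjusted p = 0.112). Without replicate 2 of the cultures with FGF2 it was -0.28 and passed (edgeR adjusted p = 0.0107), so the call of Grid1 depended on that library. Over all tested genes with a symbol, both libraries with FGF2 were below both without for 33.5% and above both for 33.6%, against 5 and 0 of these 6 genes, Grik4 being the overlapping one.

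The changes of the subunits were compared within libraries through the log2 ratio of each of the 15 pairs. The ratio of Grik1 to Grik5 was -2.51 and -2.42 with FGF2 and -2.10 and -2.15 without, so Grik1 was lower relative to Grik5 with FGF2. The same held for its ratios to the other 4 genes, with both libraries with FGF2 below both without and differences from -0.71 against Grik4 to -0.34 against Grik5. The ratio of Grik1 to a tested gene was lower in this way for 81.6% of all tested genes, so this holds for most genes and not for these subunits in particular. Grik3 and Grik5 kept close to each other, with log2 ratios of 0.68 and 0.66 with FGF2 and 0.63 and 0.69 without, and a difference of 0.01. For the high-affinity pair the groups were apart, with a log2 ratio of Grik4 to Grik5 of -2.31 and -2.56 with FGF2 against -2.85 and -2.75, a difference of 0.37 (exact permutation p = 0.333, 0.714 adjusted over the 15 pairs). In all, the groups were apart for 7 of the 15 pairs, 5 of which were the pairs of Grik1. Grik3 and Grik4 were also apart (difference -0.36), so this was not particular to the high-affinity pair. The share of all genes with such a ratio to Grik4 or Grik5 was not computed, so these separations are not read as a result about the subunits. With 2 libraries against 2 an exact permutation test cannot give a p below 0.333, and the ratio of Grik1 to Grik5 had that p (two-sided, 0.714 adjusted over the 15 pairs). The difference for Grik3 and Grik5 had p = 1 in the same exact permutation test.

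Levels of different genes were compared only per exonic length, as CPM per kb. Grik5 was highest with 29.9 ± 0.821 CPM per kb with FGF2 and 36.3 ± 0.424 without (SD, n = 2), and Grik3 followed with 27.4 ± 1.12 and 33.2 ± 0.561 (SD, n = 2). Grid1 stood between these and the other subunits, with 10.7 ± 1.26 and 11.9 ± 0.397 CPM per kb (SD, n = 2). The remaining subunits were low and close together. Per base of all exons, the order with FGF2 was Grik2 with 5.52 ± 0.2, Grik4 with 4.8 ± 0.712 and Grik1 with 4.15 ± 0.0528 CPM per kb (SD, n = 2). Without FGF2 it was Grik1 with 6.41 ± 0.225, Grik2 with 6.13 ± 0.55 and Grik4 with 4.5 ± 0.16 CPM per kb (SD, n = 2). Grik1 and Grik2 overlapped without FGF2, with 6.25 to 6.57 against 5.74 to 6.52, and with FGF2 the lowest library of Grik2 (5.37) was barely above the highest of Grik4 (5.31).

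Expressed as shares of the summed kainate subunit level per length, Grik5 made up 41.7% ± 0.25 with FGF2 and 42% ± 0.26 without, and Grik3 made up 38.2% ± 0.28 and 38.3% ± 0.86 (SD, n = 2). These 2 shares overlapped between the groups. The share of Grik1 was 5.6% and 5.98% with FGF2 and 7.56% and 7.25% without, a difference of -1.62 percentage points. Grik4 went the other way, with 7.22% and 6.13% with FGF2 against 5.05% and 5.35% without, a difference of 1.47 points that came to 0.93 once FGF2 replicate 1 was dropped. Both differences were larger than the spread between the libraries, with p = 0.333 in the exact permutation test (two-sided, the smallest that 2 against 2 allow, 0.833 adjusted over the 5 subunits). A share also moves with the levels of the other subunits. The CPM of Grik4 itself overlapped between the groups (mean 28.6 with FGF2 and 26.8 without, edgeR adjusted p = 0.591). The order of the low subunits depended on the length used. With the longest transcript in place of all exons the mean share with FGF2 was 8.91% for Grik1 and 5.66% for Grik4, so that Grik1 stood above Grik4 and not below it, and without FGF2 the share of Grik1 was 11.3%.

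**Figure D2:**
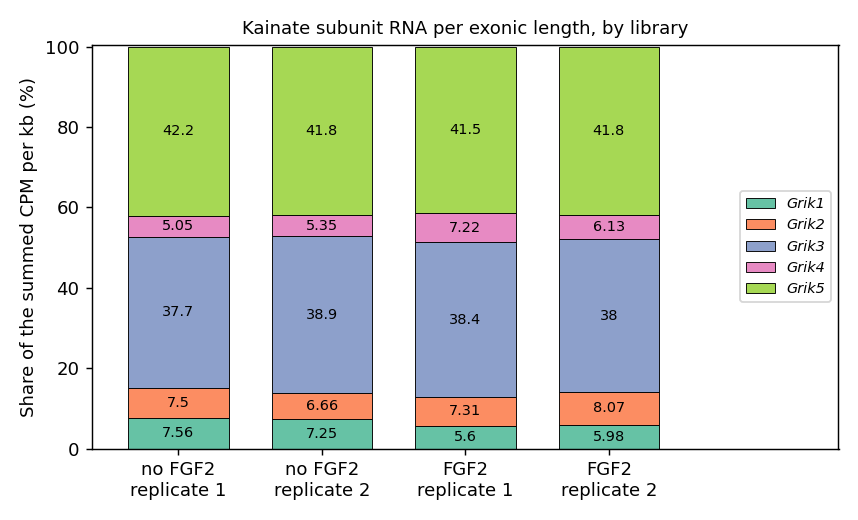
Share of each kainate subunit in the summed CPM per kb (vertical axis, percent) in each library. Grik5 and Grik3 together fill most of every bar, and the Grik1 segment is 5.6% and 5.98% with FGF2 against 7.25% and 7.56% without.

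The genes that work with these subunits were described by lists chosen with earlier results of these data known. Neto1 and Neto2, the auxiliary proteins that slow the gating of kainate receptors, both fell, with log2 fold changes of -0.40 and -0.32 (edgeR adjusted p = 2.3e-06 and 2.9e-06). The counts of Neto1 were 514 and 610 with FGF2 against 785 and 884, and those of Neto2 785 and 1074 against 1282 and 1332, so the groups were apart for both. Of 12 tested genes for scaffolds and partners of kainate receptors, 6 were lower, 1 was higher and 5 did not pass, with a median of -0.21. Grip2, which encodes a PDZ scaffold, fell by 0.88 on the log2 scale and Cdh2, which encodes N-cadherin, rose by 0.21 (edgeR adjusted p = 1.3e-16 and 7.5e-07). The 3 editing genes were also lower, with log2 fold changes of -0.57 for Adarb1, the enzyme that edits the pore codon of Grik2, -0.71 for Adarb2, an inactive relative, and -0.19 for Adar (edgeR adjusted p = 5.2e-17, 4.8e-37 and 7.0e-04).

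Cerebellins and neurexins, the partners that GluD1 binds across the synapse, went both ways. Among the cerebellins, Cbln2 rose by 1.48 on the log2 scale, from 54 and 52 counts to 133 and 129, and Cbln4 fell by 2.27, from 45 and 38 counts to 12 and 3 (edgeR adjusted p = 1.2e-11 and 5.0e-06). Cbln1 and Cbln3 did not pass, with log2 fold changes of -0.44 and -0.08. Of the neurexins, Nrxn2 (-0.50) and Nrxn3 (-0.45) were lower (edgeR adjusted p = 4.8e-35 and 2.4e-31).

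The summed AMPA and NMDA levels stood further below those without FGF2 than the kainate sum did. The summed level of the 5 kainate subunits was 73.5 and 70.1 CPM per kb with FGF2 and 86.9 and 86.2 without, a ratio of 0.83 between the group means. For the 4 AMPA subunits the ratio was 0.64 and for the 7 NMDA subunits 0.65. Kainate RNA therefore made up more relative to AMPA RNA with FGF2, at 0.74 and 0.693 against 0.554 and 0.554, and relative to NMDA RNA, at 0.941 and 0.916 against 0.728 and 0.733. Both ratios had p = 0.333 in the exact permutation test (two-sided, the smallest possible, 0.333 adjusted over the 2 ratios). The median log2 fold change over all tested genes was 0.00. The share of all genes that were higher relative to the AMPA or NMDA sum was not computed. The higher ratios therefore cannot be called particular to kainate RNA. Of the AMPA genes Gria1 fell by 0.99 on the log2 scale, while Gria4 rose by 0.19 (edgeR adjusted p = 5.4e-149 and 0.0255) and Gria2 and Gria3, at 0.06 and -0.06, did not pass. The lower AMPA sum thus rested on Gria1 (mean 355 CPM with FGF2 against 708 without), and the median log2 fold change over the 4 AMPA genes was 0.00. Of the 6 tested NMDA subunits 5 were lower, Grin1 (-0.54), Grin2a (-0.35), Grin2b (-0.69), Grin2d (-0.96) and Grin3a (-0.38), and Grin2c (-0.27) did not pass. Grin3b, with 2 to 5 counts per library, was not tested.

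**Figure D3:**
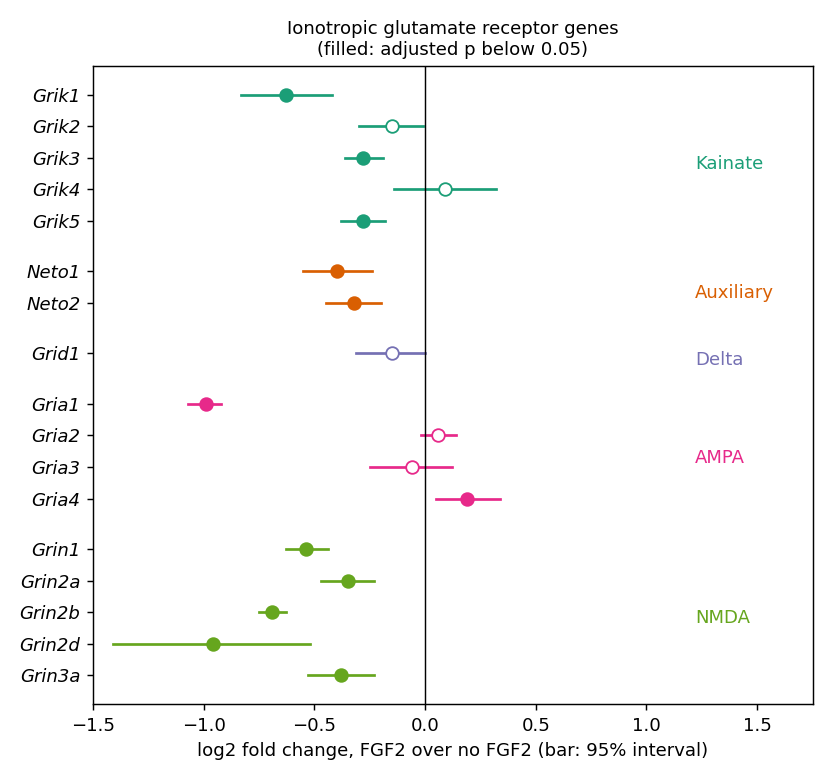
Log2 fold change (horizontal axis, FGF2 over no FGF2) of the tested kainate, auxiliary, AMPA and NMDA genes and Grid1, without Grin2c, which had 12 to 33 counts, with the 95% interval as a bar and filled points for adjusted p-values below 0.05. Grik4 sits at 0.09 and Grid1 at -0.15 and Gria1 lies far to the left at -0.99.

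Of the 7 tested metabotropic glutamate receptor genes, 5 were lower and 2 did not pass, with a median log2 fold change of -0.38, from -1.04 for Grm4 to 0.07 for Grm7. Glutamate transporters went both ways, with 3 higher, 1 lower and 2 that did not pass among 6 tested. Slc1a1, a neuronal transporter, rose by 0.55, and the vesicular transporter Slc17a6 was at -0.34, right at the threshold (edgeR adjusted p = 1.1e-17 and 0.05).

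Markers of the cell types in the culture also differed between the groups. As a check of the labelled tissue, neuronal, astrocyte and oligodendrocyte lineage markers were all present, and 0 of the markers were at 0 in every library. Of the 12 pan-neuronal markers, 10 were lower and 1 was higher with FGF2, and their summed level was 3733 to 3887 CPM with FGF2 and 5460 to 5485 without. Of the 11 IN markers 10 were lower (784 to 784.7 CPM against 1367 to 1409 in sum), and of the 10 markers of excitatory neurons (EN) 5 were lower (585.1 to 603.8 against 800.8 to 822.9). By comparison, 8 of 10 astrocyte markers were higher (12630 to 12750 CPM against 7742 to 7793 in sum). The astrocyte marker Fgfr3 was lower (log2 fold change -0.44, edgeR adjusted p = 1.5e-06) and S100b did not pass. All 9 of 9 tested oligodendrocyte lineage markers were higher (1864 to 1873 against 559.6 to 568.7). Of 7 radial glia and progenitor markers 3 were higher (Sox2, Pax6 and Vim) and 1, Nes, was lower. Their sum was 1830 to 1835 CPM with FGF2 against 907.3 to 935.9, but Vim, which astrocytes also express, carried this gap, and without Vim the sums overlapped (250.7 to 265.3 against 243.4 to 252.6). Without its most abundant gene each of the other 6 lists kept its groups apart in the same direction. The 3 tested microglia markers of 7 were higher at low levels (12.34 to 13.93 CPM in sum against 4.854 to 5.357). The part of these shifts in the levels of the receptor genes was not tested.

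To set the subunits beside the neuronal markers, the mean log2 CPM of the 12 pan-neuronal markers, which was 7.12 and 7.13 with FGF2 and 7.61 and 7.56 without, was subtracted from each gene in each library. Grik1 was lower by this measure, at -2.33 and -2.31 with FGF2 and -2.14 and -2.16 without, a difference of -0.16. The other 5 genes were higher relative to these markers, by 0.18 for Grik3 and Grik5, 0.31 for Grik2, 0.30 for Grid1 and 0.54 for Grik4, with the libraries of the groups apart in each. The value of Grid1 was 0.18 once FGF2 replicate 2 was dropped. Among all tested genes with a symbol 73.4% were higher in this way and 7.39% were lower, so over all genes a lower value was less common. The 12 markers themselves had log2 fold changes from -1.10 to 0.38, with a median of -0.46. The log2 fold change of Grik1, -0.63, lay within that range, so Grik1 did not stand outside the neuronal markers. Each of the 6 differences relative to the markers had p = 0.333 in the exact permutation test (two-sided, the smallest possible, 0.333 adjusted over the 6 genes).

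**Figure D4:**
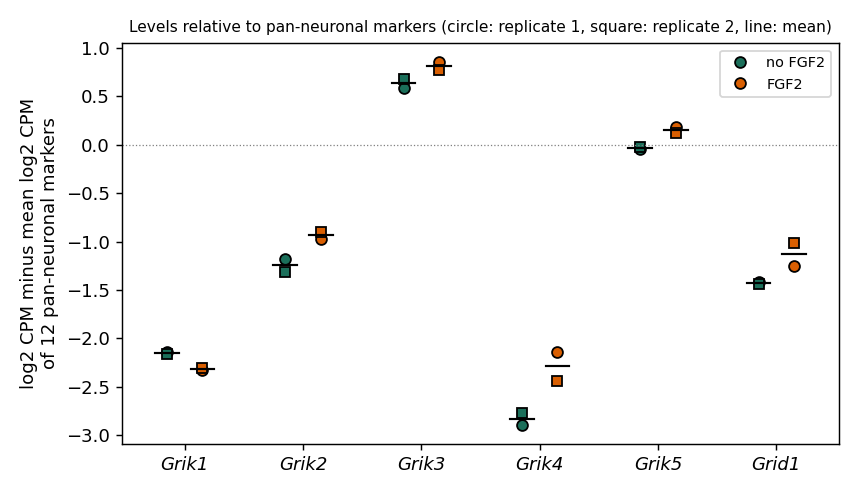
Log2 CPM of each subunit gene minus the mean log2 CPM of 12 pan-neuronal markers (vertical axis), by library. Grik1 is the one gene lower with FGF2 by this measure (-2.32 against -2.15 on average), and Grik4 shows the widest gap (-2.29 against -2.83).

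Promoter sequence was at hand in RefSeq (GRCm38.p6) for Grik2, Grik3, Grik4 and Grik5, and Grik1 and Grid1 had no entry. The 250 bases before the start of Grik3 are shown, since Grik3 was lower with FGF2, is high per length and has no GENCODE exon in this stretch. It lies at chr4:125490446-125490695 on the plus strand, and the letters GGGCGG or their reverse complement CCGCCC are in capitals.
Grik3: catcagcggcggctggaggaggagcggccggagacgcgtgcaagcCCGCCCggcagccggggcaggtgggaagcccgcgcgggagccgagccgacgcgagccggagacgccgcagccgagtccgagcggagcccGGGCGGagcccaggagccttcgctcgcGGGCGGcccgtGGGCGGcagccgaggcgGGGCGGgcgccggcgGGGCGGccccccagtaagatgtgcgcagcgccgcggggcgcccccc
In the window of 300 bases, which runs on past the start, these letters were found on either strand in Grik3, Grik4 and Grik5 and not in Grik2, and 35.7% of the 32851 promoters of that length held them. The letters TATAAA, held by 13.6% of the promoters, were in 0 of the 4. The GC content was 82.0% for Grik3, 70.0% for Grik4, 72.0% for Grik5 and 64.7% for Grik2, above the median of 52.7% over all promoters.

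The genes with the most similar pattern were found by the Euclidean distance between log2 CPM values centred over the 4 libraries, among genes within a factor of 2 of the mean level. They were Inka2 and Fbxo2 for Grik1 (distances 0.023 and 0.024), Ildr2 and Hnrnpa3 for Grik2 (0.024 and 0.024) and Limch1 and Larp1 for Grik3 (0.015 and 0.016). For Grik4 they were Morf4l1-ps1, a pseudogene whose reads are hard to assign, and BC005624 (0.025 and 0.029), for Grik5 Cadm1 and Aff3 (0.011 and 0.016) and for Grid1 Ppid and Dvl1 (0.029 and 0.031). With 4 libraries in 2 groups such likeness describes the shape of the values and no more.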

How the data were processed

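RNA-seq of PFC cultures was analysed, with 2 libraries with and 2 without FGF2. The authors mapped clean reads to mm10 with HISAT2 2.1.0, used Samtools to keep alignments of quality 20 or more, ran HTSeq 0.11.2 for the gene tallies, and the deposited values are raw counts, not normalized. The annotation release and strand setting are not given in the sources used here. Of 55421 gene identifiers 55240 matched GENCODE M21, which gave names, coordinates and exonic lengths. The 5 tallies that name no gene were left out of totals and tests (no feature 43.15% to 45.87% and ambiguous 1.474% to 1.765% of each library).

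The main test was edgeR 4.0.16 (R 4.3.3; TMM, expression filter by group, robust quasi-likelihood, Benjamini-Hochberg over 17144 genes). The fits tried beside it used upper quartile, RLE or total count scaling, no filter, at least 10 counts in every library, DESeq2 1.42.0, limma-voom 3.58.1, a replicate block, each library left out, and a threshold of 0.01. Log2 CPM used a prior count of 1 (0.1 as an alternative). Near-identical copies were sought with BLAST 2.17.0. Replicates differed by more than sampling noise (chi-square per degree of freedom 2.28 with and 1.76 without FGF2) and were kept apart. On simulated counts for 17144 genes of this comparison, edgeR called 78 of 200 genes changed by 1.3-fold with 5 false calls, and 162 changed by 2-fold with 11.

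Named genes were the members, their partner lists, the extremes of the other lists with a mean of at least 5 CPM and the nearest 2 genes in pattern. The members and lists were chosen with earlier results of these data known. Ratios of pairs and of families, the coding runs, the promoters and the marker sums without the most abundant gene were added after seeing the data. Some genes of the partner lists are not reported here.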

Additional observations from a re-analysis of the deposited data

How the results depend on the processing

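Grik1, Grik3 and Grik5 stayed lower and past the threshold in all 8 other fits and with each library left out, with log2 fold changes from -0.67 to -0.59, -0.32 to -0.24 and -0.31 to -0.26 as libraries were left out. Grik2 reached -0.18 and passed with upper quartile scaling and ranged from -0.24 to -0.06 with a library left out, Grid1 from -0.28 to -0.04 and Grik4 from -0.07 to 0.23, where the sign turned without replicate 1 with FGF2. With DESeq2, 1939 genes were lower and 2068 higher in place of 3408 and 3541, and the cause was not tested. The share of Grik3 differed by -0.14 points and that of Grik5 by -0.32, which turned to 0.19 and 0.09 with the longest transcript, and the share of Grik3 ranged from -0.75 to 0.46 with a library left out, so neither share has a direction. The other shares and the levels relative to pan-neuronal markers kept their direction, but 1 library moved some by over 1.5 times. The share of Grik4 differed by 0.93 in place of 1.47 points without FGF2 replicate 1, Grid1 relative to the markers by 0.18 in place of 0.30 without FGF2 replicate 2, and the share of Grik2, 0.61 points with overlapping groups, ranged from 0.19 to 1.04 over the libraries left out. List medians moved by more than the spread between libraries as follows. With upper quartile scaling they were -0.23 for kainate partners, -0.03 for AMPA, -0.48 for NMDA and 0.14 for transporters, and with total count scaling -0.22 for partners, -0.02 for AMPA and 0.15 for transporters. With no filter, which adds low genes, they were -0.28 for partners and -0.37 for NMDA, and with DESeq2 -0.29 and -0.38. With a library left out they ranged from -0.49 to -0.25 for auxiliary proteins, -0.23 to -0.19 for partners, -0.03 to 0.02 for AMPA, -0.59 to -0.46 for NMDA and -0.43 to -0.34 for metabotropic receptors. Same-numbered libraries did not deviate together (correlation 0.006 across 12651 genes), so the numbers were not taken as pairs, and with a replicate block Grik1 was at -0.63, Grik3 at -0.28 and Grik5 at -0.28, with 3 of the 6 genes lower. Scaling moved the median of all genes by at most 0.026 in size (to -0.027). On simulated counts 78 of 200 changes of 1.3-fold were called, in genes drawn from all tested genes at any count level. Changes of that size or smaller can therefore be missed among tested genes at large. The rate for genes with the counts of these 6 was not estimated, and Grik3 and Grik5 passed at smaller changes (0.83 and 0.82 of the level without FGF2).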
